A study of Mus musculus with 6 samples.

Results

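Transcripts of 10 genes of glucose uptake and glycolysis were compared between CX3CR1- cells and CX3CR1+ cells, sorted as MHCII hi, of the small bowel muscularis externa (ME). The genes were taken by symbol, and all 10 (Slc2a1, Hk1, Hk2, Hk3, Pfkl, Pfkp, Pfkfb3, Aldoa, Pkm and Ldha) were found among the 26110 genes listed. The study asked how the CX3CR1- population differs from its CX3CR1+ neighbours, and for this it sorted each of them by flow cytometry and sequenced their RNA in bulk. There were 3 CX3CR1- and 3 CX3CR1+ libraries, called replicates 1, 2 and 3 as the library numbers of their titles ascend. Every library had the genotype CX3CR1+/GFP, in which a green fluorescent protein replaces 1 copy of Cx3cr1 and reports its activity. The mice were female, on a C57BL/6 background and untreated, and their age at sorting is not given in the sources used here. The ME of several mice was pooled per group, and no source used here says whether each library had a pool of its own. A replicate is therefore a library, and p-values measure only the spread between these libraries, which may be technical.

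The sample labels name the cells dendritic cells, whereas the study speaks of macrophages. The study rests this also on protein markers seen by staining and flow cytometry, which are not compared with the RNA values here. Cx3cr1 itself had normalized values of 23.2, 18.9 and 28.5 in CX3CR1- replicates 1 to 3 and of 371, 380 and 347 in CX3CR1+ replicates 1 to 3, as the sort would have it. Cx3cr1 is also 1 of the 11 macrophage markers listed. Apart from it the other 10 were called lower in CX3CR1- libraries too (adjusted p of at most 0.05 and a fold change of at least 2), where 8.15% of all genes tested were. The summed value of all 11 was 10416 ± 1010 (SD, n = 3) against 49549 ± 2313 (SD, n = 3). Mrc1 was at 2932, 3690 and 3693 in CX3CR1- and at 15485, 15884 and 15078 in CX3CR1+ libraries, and C1qb was the most abundant per kilobase of transcript in each population. All 7 markers of conventional dendritic cells were called higher in CX3CR1- libraries, where 12.2% of all genes tested were, with a summed value of 3724 ± 300.5 (SD, n = 3) against 340.4 ± 15.7 (SD, n = 3), and Cd209a was the most abundant of them per kilobase in CX3CR1- cells. None of the markers of either list lay at or under 3 reads in every library. Each population thus held transcripts of both lists, with those of dendritic cells higher in CX3CR1- and those of macrophages higher in CX3CR1+ libraries.

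Values are counts estimated by the authors and normalized between libraries, so that they compare a gene across libraries but not with another gene of different length. The lowest of the commonest values of a library was taken as the value of 1 read. On that assumption CX3CR1- replicates 1 to 3 had depths of roughly 11927325, 6517529 and 11331876 reads. In CX3CR1+ replicates 1 to 3 the depths were roughly 17616597, 10014167 and 5346391 reads. The value of 3 reads, at or under which a transcript was treated as not measurable, lay between 1.39 and 5.36. All 10 genes lay far above it in every library, the lowest value being 66.3 for Pfkl. Mitochondrially encoded transcripts took 54.9, 47.5 and 52.5% of the normalized total in CX3CR1- replicates 1 to 3 and 21.2, 19.5 and 18.1% in CX3CR1+ replicates 1 to 3. Their part in the differences below was not tested.

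Glycolysis splits glucose into pyruvate in the cytosol and yields ATP without oxygen. Glucose enters through facilitative transporters, is trapped by hexokinases, and is committed to the pathway by phosphofructokinase, whose activator fructose-2,6-bisphosphate is made by the PFKFB enzymes. Myeloid cells are known to raise this pathway when activated, and lactate dehydrogenase then returns the NAD that it consumes.

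All 10 genes passed the filter, a mean value over all 6 libraries of 10 or more. A gene was called at an adjusted p of at most 0.05 and a fold change of at least 2, a log2 fold change of 1 in either direction. Of the 10, 2 (Pfkp and Ldha) were called higher in CX3CR1- cells, where 12.2% of the 17812 genes tested were, and 2 (Hk3 and Pfkfb3) were called lower, where 8.15% were. By adjusted p alone, 3 were higher (13.3% of all genes tested) and 4 were lower (11.0%), the additional genes being Aldoa, Slc2a1 and Hk2. Over all genes the number lower by adjusted p alone fell from 1965 to 1195 without CX3CR1+ replicate 2 and to 1262 without CX3CR1+ replicate 3. The libraries of the groups did not overlap for any of the 10 genes, 5 higher and 5 lower, as for 40.0% of all genes tested. The median log2 fold change (CX3CR1- minus CX3CR1+) was -0.12 over the 10 genes and 0.00 over all genes tested. The genes were chosen with earlier results of these libraries known, so the counts describe them and carry no test of the list. In sorted bulk RNA, fewer cells of a type and less RNA per cell cannot be told apart.

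**Figure D1:**
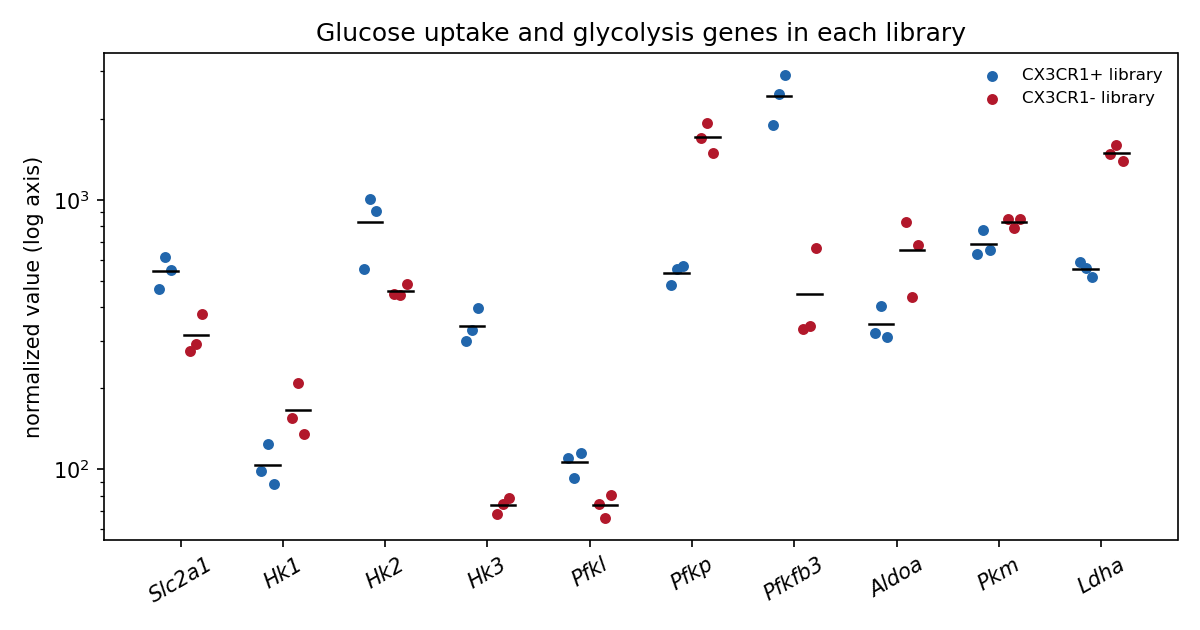
Normalized value (log axis) of each of the 10 genes in the 3 CX3CR1- (red) and 3 CX3CR1+ (blue) libraries. Each point is a library and each bar is a group mean. The red and blue points of a gene do not overlap for any of the 10 genes, and they lie farthest apart for Pfkfb3, Hk3, Pfkp and Ldha.

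Slc2a1 encodes GLUT1, the widely expressed glucose transporter of the plasma membrane. Its normalized values were 274, 292 and 378 in CX3CR1- and 467, 615 and 547 in CX3CR1+ replicates 1 to 3. Every CX3CR1+ library was above every CX3CR1- library, with CX3CR1- replicate 3 nearest to them. The log2 fold change was -0.79 (± 0.21 SE, Benjamini-Hochberg adjusted p = 0.0194 in limma), short of the fold required for a call. The adjusted p lay above 0.05 in 6 of the 16 other settings run, with a range of 0.0112 to 0.0993.

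Hexokinases phosphorylate glucose and so keep it in the cell. Hk1 encodes the housekeeping form bound to mitochondria, and its values were 155, 209 and 135 in CX3CR1- and 99.0, 124 and 88.5 in CX3CR1+ libraries. The lowest CX3CR1- library, replicate 3, was close to the highest CX3CR1+ library, replicate 2. The difference did not pass the test, with a log2 fold change of 0.67 (± 0.27 SE, limma adjusted p = 0.103). Hk2 encodes the inducible form that also binds mitochondria, and its values were 448, 445 and 489 in CX3CR1- and 556, 1012 and 906 in CX3CR1+ libraries. CX3CR1+ replicate 1 was near the CX3CR1- libraries and the other two were well above. The log2 fold change of Hk2 was -0.79 (± 0.23 SE, limma adjusted p = 0.0324), again without a call. Without CX3CR1+ replicate 1 it became -1.06 and was called, whereas without CX3CR1+ replicate 2 it was -0.62 with a limma adjusted p of 0.148, in a range of 0.00747 to 0.148 over all settings.

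Hk3 encodes the hexokinase of leukocytes. Its values were 68.6, 74.2 and 78.6 in CX3CR1- and 300.0, 329 and 396 in CX3CR1+ libraries. The CX3CR1- libraries lay close together and far below the lowest CX3CR1+ library. The group means were 73.8 ± 4.99 (SD, n = 3) and 342 ± 49.1 (SD, n = 3). Hk3 was lower in CX3CR1- cells with a log2 fold change of -2.19 (± 0.23 SE, Benjamini-Hochberg adjusted p = 9.12e-05 in limma). The gene lies on GRCm38 at chr13:55005985-55021385 on the minus strand.

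Phosphofructokinase makes fructose-1,6-bisphosphate, the first step that belongs to glycolysis alone. Pfkp, which encodes the platelet form, had values of 1694, 1933 and 1488 in CX3CR1- and of 483, 554 and 569 in CX3CR1+ libraries. The lowest CX3CR1- library, replicate 3, was far above the highest CX3CR1+ library. The means were 1705 ± 223 (SD, n = 3) and 536 ± 46.2 (SD, n = 3), a ratio of 3.18. Pfkp rose in CX3CR1- cells with a log2 fold change of 1.66 (± 0.17 SE, limma adjusted p = 7.99e-05). It lies at chr13:6579768-6648777 on the minus strand of GRCm38, and 5.28% of its 31-mers also occur in Pitrm1, which was at 139 in CX3CR1- and 366 in CX3CR1+ libraries on average. Pfkl encodes the liver form and was at 74.3, 66.3 and 80.3 in CX3CR1- and 111, 93.1 and 115 in CX3CR1+ libraries. Its groups did not overlap, yet its log2 fold change of -0.52 did not pass the test (± 0.26 SE, limma adjusted p = 0.185).

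Pfkfb3 encodes the PFKFB enzyme with the highest kinase activity relative to its phosphatase activity, so that it raises fructose-2,6-bisphosphate. Its values were 333, 339 and 666 in CX3CR1- and 1889, 2476 and 2904 in CX3CR1+ libraries. CX3CR1- replicate 3 stood above the other CX3CR1- libraries and was still far below CX3CR1+ replicate 1. The means were 446 ± 190.2 (SD, n = 3) and 2423 ± 510 (SD, n = 3). Pfkfb3 was lower in CX3CR1- cells with a log2 fold change of -2.50 (± 0.28 SE, Benjamini-Hochberg adjusted p = 1.39e-04 in limma), and of -2.82 without CX3CR1- replicate 3. It lies at chr2:11471433-11554077 on the minus strand of GRCm38.

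Aldoa encodes the aldolase of muscle and most other tissues, which cleaves fructose-1,6-bisphosphate. Its values were 831, 435 and 683 in CX3CR1- and 322, 404 and 311 in CX3CR1+ libraries. CX3CR1- replicate 2 lay just above CX3CR1+ replicate 2, and the other CX3CR1- libraries lay well above. The log2 fold change was 0.87 (± 0.25 SE, limma adjusted p = 0.0316), below the fold required. Without CX3CR1- replicate 2 it was 1.13 and Aldoa was called higher, and without CX3CR1- replicate 1 it was 0.66 with a limma adjusted p of 0.103, in a range of 0.00459 to 0.115 over all settings.

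Pkm encodes the pyruvate kinase of muscle and leukocytes, which yields pyruvate and ATP. Its values were 849, 785 and 847 in CX3CR1- and 632, 774 and 653 in CX3CR1+ libraries. CX3CR1- replicate 2 and CX3CR1+ replicate 2 nearly met. Pkm did not pass the test, with a log2 fold change of 0.27 (± 0.17 SE, limma adjusted p = 0.278). Of its 31-mers, 34.7% also occur in other genes, mostly the pseudogene Gm6560 (17.9%), so its level is uncertain.

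Ldha encodes the lactate dehydrogenase subunit that favours the reduction of pyruvate to lactate. Its values were 1483, 1603 and 1396 in CX3CR1- and 587, 561 and 517 in CX3CR1+ libraries. The 3 libraries of each group lay close together and the groups were far apart. The means were 1494 ± 104 (SD, n = 3) and 555 ± 35.2 (SD, n = 3), a ratio of 2.69. Ldha rose in CX3CR1- cells with a log2 fold change of 1.43 (± 0.16 SE, Benjamini-Hochberg adjusted p = 1.35e-04 in limma). It lies at chr7:46841475-46855627 on the plus strand of GRCm38, and 19.6% of its 31-mers also occur in other genes, most often in Gm5452 (7.77%).

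Divided by the length of the longest transcript, the mean level per kilobase could be compared between genes within a population. In CX3CR1- cells Ldha came first at 823 ± 57.5 (SD, n = 3) per kilobase and was above the next gene in every library. Aldoa (419 ± 129, SD, n = 3) and Pkm (340.0 ± 14.9, SD, n = 3) followed and overlapped with each other. Pfkp was at 196 ± 25.7 (SD, n = 3), and Slc2a1, Pfkfb3 and Hk2 came next, with neighbours in this order overlapping. In CX3CR1+ cells Pfkfb3 came first at 505 ± 106 (SD, n = 3) per kilobase and was above the next gene in every library, and Ldha followed at 306 ± 19.4 (SD, n = 3) and overlapped with Pkm at 282 ± 31.5 (SD, n = 3). The last places belonged to Hk1, Hk3 and Pfkl in CX3CR1- and to Pfkp, Pfkl and Hk1 in CX3CR1+ cells. The longest Pfkp transcript, of 8681 bases, is not protein-coding. With its longest coding transcript, of 4145 bases, a length chosen after seeing the data, the Pfkp level per kilobase was 411 ± 53.7 against 129 ± 11.1 (SD, n = 3 each). Its mean then lay above that of Pkm in CX3CR1- and above that of Hk3 in CX3CR1+ cells, so that Hk3 took its place among the last 3 of CX3CR1+ cells.

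The share of each isozyme in the summed level per kilobase of its family was computed in each library and compared by an exact two-sided permutation test, whose smallest p for 3 libraries against 3 is 0.1. Of the summed level of Hk1, Hk2 and Hk3, without Hkdc1, Hk3 took 15.3, 15.1 and 16.9% in CX3CR1- and 42.9, 32.5 and 39.9% in CX3CR1+ libraries. Hk1 took the larger share in CX3CR1- cells, with 26.1, 32.0 and 21.8% against 10.7, 9.22 and 6.71%. The groups did not overlap for Hk3 or Hk1 (exact permutation p = 0.1 each). With the median transcript length in place of the longest, Hk3 took 4.63% against 15.7% and Hk1 took 45.4% in CX3CR1- libraries. Hk2 was the most abundant of the 3 in each population, at 57.6 ± 4.28% (SD, n = 3) and 52.7 ± 5.97% (SD, n = 3), and its shares overlapped (exact permutation p = 0.4). With median lengths the order of the groups turned round for Hk2, at 49.99% against 63.3%.

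Among phosphofructokinases, Pfkp took 87.8, 90.5 and 82.3% in CX3CR1- and 59.7, 61.8 and 62.0% in CX3CR1+ libraries. Pfkl took 8.84 ± 1.56% (SD, n = 3) against 28.4 ± 3.90% (SD, n = 3), and Pfkm, the muscle form, 4.30 ± 2.68% against 10.5 ± 3.14% (SD, n = 3 each). The groups did not overlap for any of these genes (exact permutation p = 0.1 each). With the longest coding transcripts the Pfkp share was 93.2% against 76.7%, and with median lengths Pfkl took 5.46% against 20.5% and Pfkm 0.505% against 1.44%. Pfkfb3 took 59.6, 60.1 and 75.4% of the PFKFB transcripts in CX3CR1- and 82.6, 89.5 and 90.2% in CX3CR1+ libraries, again without overlap (exact permutation p = 0.1). Pfkfb2, the heart form, and Pfkfb4 made up most of the remainder, and Pfkfb1 had a mean under 10 and was not tested.

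Pkm took 86.8, 87.8 and 97.6% of the pyruvate kinase level in CX3CR1- and at least 99.9% in every CX3CR1+ library, the rest being Pklr of liver and red cells. With median transcript lengths Pkm took 80.1% in CX3CR1- libraries. Ldha was the main lactate dehydrogenase subunit in each population, at 91.0 ± 6.56% (SD, n = 3) and 81.8 ± 3.45% (SD, n = 3), and these shares overlapped (exact permutation p = 0.2). For glucose transporters the sum ran over Slc2a1, Slc2a3, Slc2a6 and Slc2a8 only, without Slc2a2, Slc2a4, Slc2a5, Slc2a9 and Slc5a1. Of this sum Slc2a1 took 44.1 ± 1.38% in CX3CR1- and 73.4 ± 3.08% in CX3CR1+ cells (SD, n = 3 each). Slc2a6, a transporter of lysosomal membranes, took 38.7 ± 6.67% against 10.5 ± 3.03% (SD, n = 3 each). The groups did not overlap for Slc2a1 or Slc2a6 (exact permutation p = 0.1 each), whereas those of Slc2a3, the neuronal transporter, and Slc2a8 did. With median transcript lengths Slc2a6 took 12.6% against 2.88% and Slc2a3 36.2% against 24.6%. Eno1 led the enolases, at 95.1 ± 1.24% (SD, n = 3) and 82.0 ± 3.10% (SD, n = 3), and Eno2 and Eno3 of neurons and muscle took larger shares in CX3CR1+ cells.

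**Figure D2:**
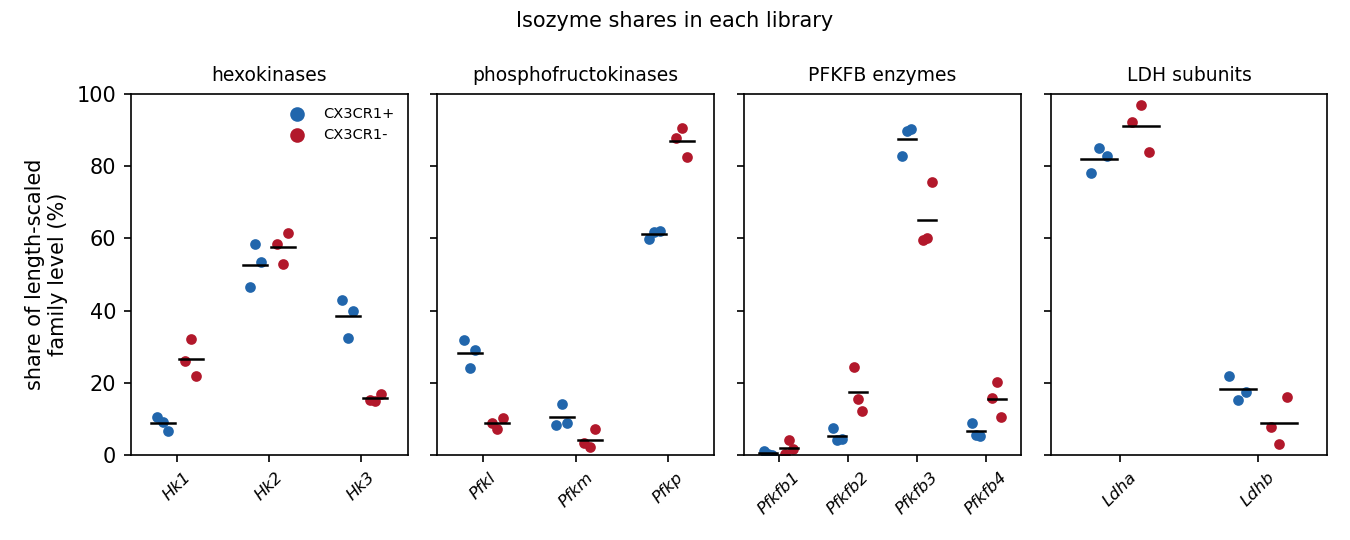
Share (%) of each isozyme in the summed length-scaled level of the isozymes in its panel in the 3 CX3CR1- (red) and 3 CX3CR1+ (blue) libraries. Points are libraries and bars are group means. Hk3 shares lie between 15.1 and 16.9% in CX3CR1- and between 32.5 and 42.9% in CX3CR1+ libraries.

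Of 31 other genes of glucose uptake, glycolysis and lactate export, 28 had a mean of 10 or more and were tested. Of these, 10 were called higher in CX3CR1- cells and 0 were called lower, where 12.2% and 8.15% of all genes tested were. By adjusted p alone 11 were higher and 1 (Pfkfb4) was lower, where 13.3% and 11.0% of all genes tested were. Their median log2 fold change was 0.37, also with the genes that lie at or under 3 reads in CX3CR1+ cells placed at the fold which that level allows. Pklr was at 154, 130.1 and 24.8 in CX3CR1- libraries. It was called higher in CX3CR1- cells and lay at or under 3 reads in every CX3CR1+ library, so that no fold is given. Slc5a1, the sodium-coupled glucose transporter of the small intestinal brush border, was at 149, 170 and 106 in CX3CR1- libraries and at 0 in the CX3CR1+ libraries, at least 52.5-fold higher. Hkdc1, a hexokinase of epithelia, rose with a log2 fold change of 3.44 (limma adjusted p = 0.00995), Aldoc with one of 2.38 (limma adjusted p = 0.0219) and Slc2a6 with one of 1.83 (limma adjusted p = 0.00263). Aldoc lost its call without the intensity trend and without CX3CR1- replicate 1, CX3CR1- replicate 3 or CX3CR1+ replicate 3. Of the 10 called higher, Pklr, Slc5a1 and Hkdc1 passed the filter only through the CX3CR1- libraries. Hkdc1 had a mean of 2.86 in CX3CR1+ libraries.

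Between aldolase and pyruvate kinase the pathway makes NADH and ATP. Eno1, the enolase of most tissues, was at 1072, 994 and 627 in CX3CR1- and 322, 349 and 331 in CX3CR1+ libraries. Gapdh, glyceraldehyde-3-phosphate dehydrogenase and the most abundant of the other glycolysis genes per kilobase, was at 3627, 3563 and 3256 and at 1930, 1905 and 1697. The CX3CR1- libraries were above the CX3CR1+ libraries for each of these genes. Eno1 was called higher, with a log2 fold change of 1.39 (limma adjusted p = 0.00144), and Gapdh missed the fold required, with one of 0.92 (limma adjusted p = 9.2e-04). Other called genes of these steps were Bpgm, Tpi1, Pgk1 and Pgam1, which make or use 2,3-bisphosphoglycerate or the 3-carbon intermediates, and their log2 fold changes were 1.44, 1.41, 1.09 and 1.08. These 4 were named after their values were seen, and Pgam1 lost its call without CX3CR1- replicate 1. Near-identical copies hold 54.7% of the 31-mers of Pgk1, 37.1% of those of Pgam1, 28.5% of those of Eno1 and 28.1% of those of Gapdh, so their levels are uncertain.

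**Figure D3:**
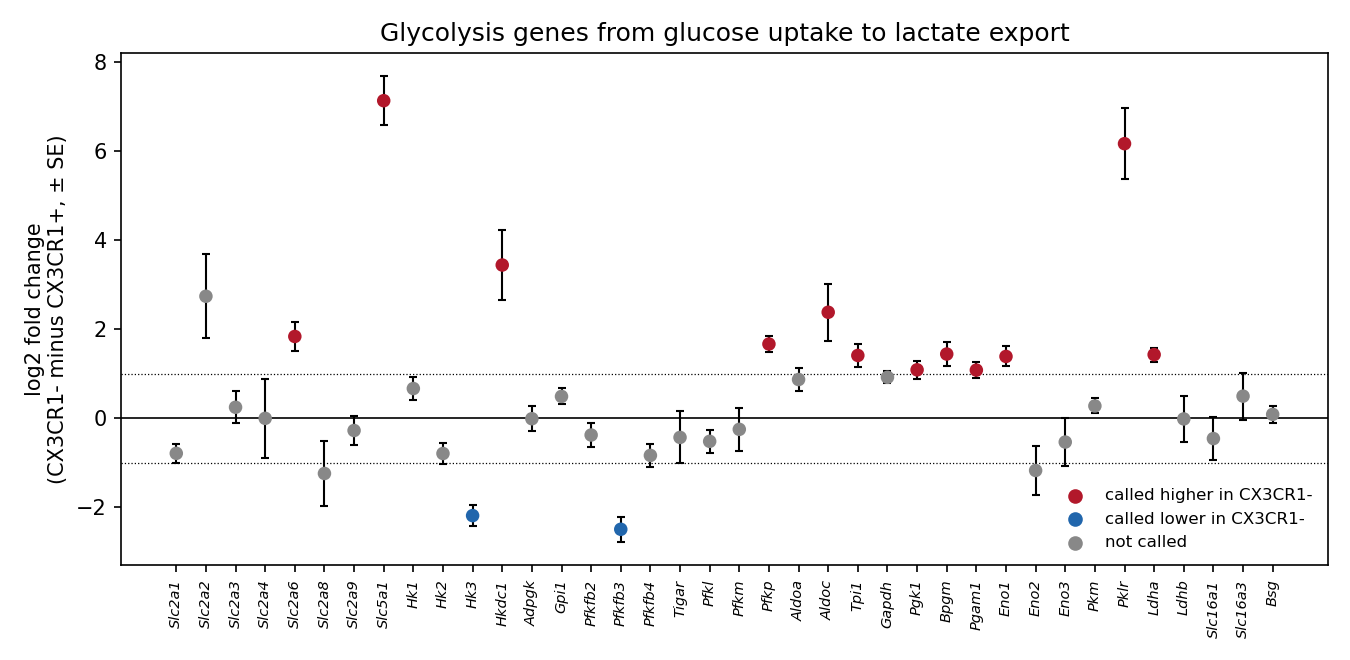
Log2 fold change (CX3CR1- minus CX3CR1+) with its standard error for the 10 genes and the 28 other tested genes, in pathway order from glucose transporters on the left to lactate export on the right. Red points were called higher, blue points called lower and grey points not called, and dotted lines mark a log2 fold change of 1 in either direction. Hk3 and Pfkfb3 are the 2 blue points, at -2.19 and -2.50. Pklr and Slc5a1 lay at or under 3 reads in every CX3CR1+ library, so that the size of their folds is not measured.

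The counts of the next lists stand beside the 12.2% of all genes tested that were called higher and the 8.15% called lower. In these and in the marker lists, a gene with a mean under 10 in 1 group passed the filter only through the other. Pdk4, Pck1 and Fbp2, named below, did so through the CX3CR1- libraries. Among called markers the same held for every enterocyte marker but Vil1, and for Itgae, Cd79a, Mzb1, Cdh5, Sox10, Hba-a2 and Cd8a. The calls of these genes thus rest on the group in which they are high. Of 31 genes of pyruvate entry and the TCA cycle, 8 were called higher and 0 lower. The 5 with the largest change were Pdk4, an inhibitory kinase of pyruvate dehydrogenase (log2 fold change 3.25), Mdh2, Cs, citrate synthase (1.77), Sucla2 (1.34) and Pdk2 (1.32). The means of Mdh2, mitochondrial malate dehydrogenase, were 1125 ± 321 and 275 ± 50.2 (SD, n = 3 each). Per kilobase Mdh2 was the most abundant gene of this list in CX3CR1- and Sdha in CX3CR1+ cells. Sdha, a subunit of succinate dehydrogenase, with means of 853 ± 120.5 and 654 ± 35.6 (SD, n = 3 each), did not pass the test (limma adjusted p = 0.155). In the pentose phosphate pathway, 1 of 8 genes was called higher, Taldo1 (log2 fold change 1.10), a share close to that of all genes. Taldo1 was also the most abundant per kilobase in CX3CR1- cells, and G6pdx, the most abundant in CX3CR1+ cells, had a log2 fold change of 0.23 (limma adjusted p = 0.687). Of the 6 genes tested for gluconeogenesis and fructose metabolism, 3 were called higher, namely Fbp2, Pck1 and Khk, the fructokinase (log2 fold change 1.42). Pck1 was at 310, 161 and 120 in CX3CR1- and 3.24, 9.02 and 2.83 in CX3CR1+ libraries, and Fbp2 was at or under 3 reads in every CX3CR1+ library.

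Of the 12 glycogen genes tested, 1 was called higher and 2 lower, and Gys2 was not analysed here. Pygl, the liver glycogen phosphorylase, had a log2 fold change of 2.32, whereas Gys1, glycogen synthase, and Pygb, the brain phosphorylase, had ones of -1.32 and -1.04. Among 21 regulators of glycolysis genes, Epas1 (HIF-2α) and Mlxipl (ChREBP) were called higher and none was called lower, too few to set apart from the share of all genes. By adjusted p alone 2 were lower, Arnt (log2 fold change -0.73, limma adjusted p = 0.0278) and Mlxip (log2 fold change -0.56, limma adjusted p = 0.0445), where 11.0% of all genes tested were. Epas1 was at 733, 359 and 470 in CX3CR1- and 68.5, 53.3 and 59.5 in CX3CR1+ libraries, without overlap, and had a log2 fold change of 3.03 (limma adjusted p = 5.11e-05). Txnip, the most abundant regulator per kilobase, did not pass the test (log2 fold change 0.03, adjusted p = 0.94, limma). Of 13 tested HIF target genes outside glycolysis, 1 (Ndrg1, log2 fold change 1.87) was called higher and 0 lower, again too few to set apart from that share. Bnip3l, the most abundant per kilobase in each population, had a log2 fold change of -0.27 (limma adjusted p = 0.488). The median log2 fold changes were 0.53 for the TCA cycle list, 0.32 for the pentose phosphate list, 0.94 for gluconeogenesis and fructose metabolism, 0.01 for glycogen, -0.04 for regulators and 0.21 for HIF targets.

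Markers of several other cell types differed between the groups as well, whereas no smooth muscle marker passed the test. Their sums run over all genes of a list, tested or not, and the most abundant gene of a list is that with the highest mean per kilobase. All 10 enterocyte markers were called higher in CX3CR1- cells, where 12.2% of all genes tested were. The marker counts that follow stand beside that share and the 8.15% of all genes tested that were called lower. Every enterocyte marker but Vil1 passed the filter only through the CX3CR1- libraries. The summed values of all 10 were 32238, 28449 and 17519 in CX3CR1- and 43.8, 24.4 and 16.0 in CX3CR1+ replicates 1 to 3. Fabp2, the most abundant in CX3CR1- cells, was at 21161, 21000.5 and 12559 against 9.25, 0.820 and 2.83, and Alpi, Apoa4, Fabp1, Krt20 and Lct lay at or under 3 reads in every CX3CR1+ library. Among CX3CR1- libraries, replicate 3 had the lowest sum of enterocyte markers.

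All 6 fibroblast markers were called higher, with sums of 7226, 4117 and 12168 against 316, 244 and 181 and Dcn as the most abundant. Of the 5 B and plasma cell markers 4 were called higher, with sums of 1341, 3539 and 1576 against 68.5, 89.3 and 58.6, Jchain as the most abundant in CX3CR1- and Cd79b in CX3CR1+ cells, and Mzb1 at 0 in the CX3CR1+ libraries. Of 4 endothelial markers 3 were called higher, with sums of 856 ± 112 and 489 ± 141 (SD, n = 3 each), and Pecam1, the most abundant, was not. Each of these sums was higher in every CX3CR1- than in any CX3CR1+ library.

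Of 4 tested enteric neuron and glia markers 2 were called higher, with sums of 199 ± 127 and 55.0 ± 14.9 (SD, n = 3 each) and S100b as the most abundant. Of the 2 erythroid markers tested 1 was called higher, Hba-a2, the most abundant in CX3CR1- cells, which lay with Hba-a1 at or under 3 reads in every CX3CR1+ library, and the sums of this list were 82.4 ± 55.3 and 7.50 ± 6.52 (SD, n = 3 each). Of 5 T cell markers 3 were tested, and Cd8a was called higher, Cd4 lower and Cd3d neither. The sums of all 5 were 249 ± 43.2 and 620.3 ± 46.3 (SD, n = 3 each), most of the latter being Cd4, at 107 ± 5.80 against 528 ± 19.3 (SD, n = 3 each). Cd3d, the most abundant in CX3CR1- cells, was at 83.5 ± 25.3 and 82.3 ± 36.6 (SD, n = 3 each). Of the 5 T cell markers, only Cd4 had a lower mean in CX3CR1- than in CX3CR1+ libraries. Csf3r, the only gene analysed of the neutrophil list, was called lower, at 50.4 ± 8.96 against 821 ± 223 (SD, n = 3 each), with S100a8, S100a9 and Ly6g not analysed here. A single gene such as Csf3r or Cd4 does not identify a cell type. Lower as well were the MHC class II genes, with sums of 100306 ± 10382 and 179762 ± 6254 (SD, n = 3 each). Of these 1 of 4 was called and all 4 were lower by limma's adjusted p alone, where 11.0% of all genes tested were, with Cd74 the most abundant. None of the 6 smooth muscle markers passed the test, with sums of 2045 ± 978 and 2318 ± 399 (SD, n = 3 each) and Actg2 as the most abundant. The part of each of these cell types in the levels of the glycolysis genes was not tested. The study describes the CX3CR1- population as positive for CD45, a marker of leukocytes. For the sort that was sequenced, its main text names only MHCII and CX3CR1.

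As 4 of the 10 genes were called, the 250 bases before their most upstream RefSeq start (GRCm38.p6) are shown. Each match to ACGTG or its reverse complement CACGT is in capitals, letters found at the core of many hypoxia response elements and E-boxes. Other forms of such elements, among them GCGTG, which the Pfkp window holds, were not searched. The windows are chr13:6648772-6649021 (minus strand) for Pfkp, chr7:46845554-46845803 (plus strand) for Ldha, chr13:55021386-55021635 (minus strand) for Hk3 and chr2:11553930-11554179 (minus strand) for Pfkfb3.
Pfkp: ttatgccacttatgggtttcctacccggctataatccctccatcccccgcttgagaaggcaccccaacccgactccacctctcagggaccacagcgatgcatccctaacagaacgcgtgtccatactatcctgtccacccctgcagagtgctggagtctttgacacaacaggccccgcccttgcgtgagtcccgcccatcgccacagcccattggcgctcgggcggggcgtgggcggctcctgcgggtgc
Ldha: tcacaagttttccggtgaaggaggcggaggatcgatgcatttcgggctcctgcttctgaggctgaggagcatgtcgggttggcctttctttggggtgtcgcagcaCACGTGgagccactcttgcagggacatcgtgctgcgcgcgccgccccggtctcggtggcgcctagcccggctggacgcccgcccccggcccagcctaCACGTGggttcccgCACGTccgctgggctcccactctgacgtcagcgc
Hk3: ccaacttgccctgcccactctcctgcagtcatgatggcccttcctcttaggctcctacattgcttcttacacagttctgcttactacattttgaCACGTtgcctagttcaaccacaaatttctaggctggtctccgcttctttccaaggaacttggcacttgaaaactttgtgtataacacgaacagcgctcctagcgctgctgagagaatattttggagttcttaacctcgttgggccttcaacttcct
Pfkfb3: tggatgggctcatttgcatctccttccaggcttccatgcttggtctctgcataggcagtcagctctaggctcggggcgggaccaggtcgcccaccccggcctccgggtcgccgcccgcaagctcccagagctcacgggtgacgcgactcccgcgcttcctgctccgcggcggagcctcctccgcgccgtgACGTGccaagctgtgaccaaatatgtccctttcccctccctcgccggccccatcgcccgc
Overlapping matches on the strands are counted apart, which gives 5 in the Ldha window, 1 in that of Hk3, 1 in that of Pfkfb3 and 0 in that of Pfkp. All 10 genes had a RefSeq window, and the letters were held by 5 of the 10 most upstream windows and by 9 of all 16, of which 2 of Aldoa overlap and share a match. Of all 32851 promoter windows of this length, 16.6% held them. A match describes the sequence and says nothing of a factor, and a window without a match may hold other forms of these elements.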

How the data were processed

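RNA was measured in 6 bulk libraries of sorted ME cells, mapped to their population by the sample titles. The authors pseudoaligned the reads with Kallisto to GENCODE M16 (mm10), imported estimated counts with tximport and normalized them with DESeq2, and the deposited values are therefore signal and not counts. Only 42.5 to 43.8% of the values above 0 were whole multiples (within 0.01) of a library's smallest step, so no count test was run. That step gave the approximate depth and the value of 3 reads, and precision is given as the SD over 3 libraries. No 2 libraries of a group agreed within sampling noise.

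Genes with a mean of at least 10 were tested with limma 3.58.1 in R 4.3.3 (lmFit, eBayes with intensity trend, two-sided) on log2(value + 1), with Benjamini-Hochberg adjustment over all 17812. Fold changes are on that scale, which understates those of low genes. Transcript lengths and shared 31-mers came from GENCODE M21. Exact permutation tests used scipy 1.17.1, and plots matplotlib 3.10.9. Of 26110 genes, 23 symbols occur more than once.

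Named are the 10 genes, isozymes of their families, of each other pathway list the called genes (at most 5 per direction by log2 fold change) and a gene that is its most abundant in either population, and of each marker list likewise a most abundant gene and those at or under 3 reads in every CX3CR1+ library, as none was so in every library. Abundance is per kilobase, a scale chosen after seeing the data. Others were named after their values were seen. Some listed genes are not reported here, and no list count, sum or share includes them. The 10 genes and all lists were chosen with earlier results of these data known. Alternatives were pseudocounts of 0.5 and 10, no filter, a stricter filter (mean of 50), quantile normalization, rescaling by median of ratios, equal totals without mitochondrially encoded genes, no trend, library weights, a block for adjacent library numbers, no fold threshold, leaving out each library, and other transcript lengths for isozyme shares.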

Additional observations from a re-analysis of the deposited data

How the results depend on the processing

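Pfkp, Ldha, Hk3 and Pfkfb3 kept their calls in all 16 other settings, and all 10 genes kept their direction. The largest adjusted p of these 4 came with no trend (0.00588 for Ldha). With no fold threshold, 3 of the 10 genes and 11 other glycolysis genes were higher (13.3% of all genes tested), and 4 of the 10 and 1 other were lower (11.0%). The median over all genes tested became -0.16 (log2) after quantile normalization and 0.17 with equal totals without mitochondrially encoded genes. Over all genes 2177 were called higher and 1451 lower. These counts became 1747 and 1731 after quantile normalization, and 2521 and 1113 with equal totals without mitochondrially encoded genes. After quantile normalization Slc2a1 (-0.67) and Hk2 (-0.58) lost their adjusted p of at most 0.05, Pkm (0.58) gained one, 1 other glycolysis gene (Pfkfb4) was called lower, and Aldoa (1.07) and Gapdh were called higher. With equal totals without mitochondrially encoded genes Slc2a1 (-0.62) and Hk2 (-0.62) lost it, Hk1 (0.84) gained it, and Aldoa (1.04) and Gapdh were called higher. Without the trend Slc2a1 (-0.79), Hk2 (-0.79) and Aldoa (0.87) lost it, and with library weights Hk2 (-0.80) lost it. Among the other glycolysis genes Aldoc was no longer called without the trend, and Slc2a2 was called higher with library weights. The cause was not tested.

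Leaving out each library in turn gave log2 fold changes of -0.93 to -0.70 for Slc2a1, -1.06 to -0.62 for Hk2 and 0.66 to 1.13 for Aldoa. Slc2a1 lost its adjusted p of at most 0.05 without CX3CR1- replicate 1 or CX3CR1+ replicates 2 or 3, Hk2 without any library but CX3CR1+ replicate 1, and Aldoa without any but CX3CR1- replicate 2. Aldoc lost its call without CX3CR1- replicates 1 or 3 or CX3CR1+ replicate 3, and Pgam1 without CX3CR1- replicate 1, while Slc2a2 gained one without CX3CR1- replicate 3. With a mean of at least 50, Aldoc and Hkdc1 were not tested. Over all genes 1965 were lower by adjusted p alone, but 1195 without CX3CR1+ replicate 2 and 1262 without CX3CR1+ replicate 3. With a mean of at least 50, which tests 10208 genes, 1232 in place of 2177 were called higher and 1449 in place of 2363 were higher by adjusted p alone, and calls in all were 2413 in place of 3628. Each fit without a library has 1 library fewer.

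Differences in isozyme share (percentage points) depended on the length used. With the median transcript length they were -20.3 for Slc2a1, 24.3 for Hk1, -13.3 for Hk2 (against 4.88), -11.1 for Hk3, -15.1 for Pfkl, 16.0 for Pfkp and -19.9 for Pkm. Without length scaling they were 1.65 for Hk2, -16.9 for Hk3, -11.7 for Pfkl and 14.7 for Pfkp. Leaving out each library moved the difference for Hk2 between 1.74 (without CX3CR1+ replicate 1) and 7.68 (without CX3CR1+ replicate 2). With the longest coding transcript, chosen after seeing the data, they were -12.5 for Pfkl and 16.5 for Pfkp. With the median length the shares of Slc2a6 and Slc2a3 also moved. No label pairs the libraries of the groups, and a block for adjacent library numbers in the titles changed no call among the 10 genes or the other glycolysis genes.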
